A study of Oryza sativa with 14 samples.

Results

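The genes described here are those whose transcripts stood apart in unmodified seedlings of the rice cultivar Nipponbare. Of 57194 probe sets on the GeneChip Rice Genome Array, 223 had a Nipponbare control mean that differed from both the Bengal and the Estrela A control means by at least 3 on the log2 scale, which is 8-fold or more, in the same direction. Of these, 6 were left out by the rule, namely those for JAZ2, IRT1, BURP16, OsC3H40 and the nitrate transporter genes NRT2.2 and NRT2.3, which left 217 members. In 164 of them the Nipponbare control was higher than both other controls, and in 53 it was lower. The 6 control arrays chose the members, so differences among the controls are given below as a description, with no test.

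Transcript levels of japonica rice (Oryza sativa) were measured on 14 arrays, 2 for each of 7 groups, and each array read a pool of 6 whole seedlings. Seedlings were harvested when 12 days old, after 2 dark days and then 10 days with 12 h of light per day, all at 28 °C. There were 3 unmodified controls, of cv. Nipponbare, cv. Bengal and cv. Estrela A. The unstable transgenic line is the T1 generation of Nipponbare transformed with Agrobacterium tumefaciens. It carries 1 copy of the BCBF1 gene behind the Arabidopsis promoter AtRD29A, and 1 copy of the hygromycin resistance gene hpt II. The unstable mutant line is the M1 generation of Nipponbare given 100 Gy of gamma radiation, and was picked by the submitters because it looked most like the non-irradiated control. For both of these lines, control and modified seed came from a single selfed panicle, per the labels' design text. The stable transgenic line (cv. Bengal, T3) makes the single-chain antibody ScFvT84.66, and the stable mutant (cv. Estrela A) is a gamma-irradiated semidwarf about 45 cm shorter than its wild type after more than 10 selfed generations. Both transgenic lines germinated with hygromycin B at 30 mg/L and the other groups without it. Each modified group is a single line, so lines and their treatments cannot be told apart. Nothing in the labels says that the seedling pools came from independent lines, so all p-values measure only the spread between these pools.

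Rice cultivars differ by insertions, deletions and base changes, and whole genes can be present in one cultivar and missing from another. A short-oligonucleotide array reads a transcript through a set of probes written for one sequence, so its value depends both on the amount of transcript and on how well the probes match. Nipponbare is the cultivar of the reference genome of japonica rice, and dehydrins, diterpenoid phytoalexin enzymes and iron-uptake genes, all of which occur among the members, are known as strongly responsive genes in rice seedlings. In pooled whole seedlings, fewer cells of a type and less RNA per cell cannot be told apart.

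Arrays of one group correlated at 0.993 to 0.997 over all probe sets, and array medians lay between 5.83 and 5.89. The Nipponbare control correlated with the unstable transgenic line at 0.981 to 0.99 and with the unstable mutant line at 0.971 to 0.978. The unstable mutant correlated with the Bengal control at 0.972 to 0.974 and with the Estrela A control at 0.971 to 0.973. Although it is labelled cv. Nipponbare, its arrays therefore stood about as close to the other cultivars as to the Nipponbare control, and for this reason the members are called set apart in the Nipponbare control rather than in Nipponbare. Its levels are given beside each result.

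Most members were near the bottom of the scale on one side. Among the 164 higher members, the brighter of the Bengal and Estrela A control means was below the median of all values, 5.86, in 128 and below 5 in 101. The Nipponbare control mean of these members had a median of 9.20 and was 10 or more in 62. The smaller of the 2 control differences had a median of 4.0 and reached 8.73, with 45 members at 5 or more and 12 at 7 or more. Among the 53 lower members the Nipponbare control was below 5 in 24 and below the overall median in 38. Their smaller control difference had a median size of 3.88, with 4 members at 5 or more and 1 at 7 or more. Members higher in the Nipponbare control were thus more numerous than lower ones, and differences of 7 or more were found in 12 higher members against 1 lower member.

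Arrays of the 4 modified lines took no part in the choice, and they were used to ask whether the difference was also seen in other seedlings of these cultivars. Each transgenic line was set against the other and each mutant against the other, so that hygromycin and the broad kind of modification were alike on both sides. Within each pair the cultivar, the generation and the transgene or mutant line still differed, and these cannot be told apart. All tests used limma with Benjamini-Hochberg adjustment over all 57194 probe sets, and a probe set was called at an adjusted p under 0.05.

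In the unstable transgenic line nearly all members kept the pattern of the Nipponbare control. Against the stable transgenic line, 162 of the 164 higher members were called higher, where 10.5% of all probe sets were. The exceptions were NAS2 and a probe set paired with no gene in the tables used here. Such probe sets are described below without a name. Of the 53 lower members, 52 were called lower, where 13.5% of all probe sets were, and the exception was an unannotated probe set. The median difference was 4.15 for higher members and -3.70 for lower members, where all probe sets had a median of -0.04.

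In the unstable mutant line the pattern was split. Against the stable mutant, 120 of the 164 higher members were called higher, 9 were called lower and 35 were not called, where 4.5% and 4.01% of all probe sets were called in each direction. Of the 53 lower members, 27 were called lower, 4 were called higher and 22 were not called. The median difference was 3.92 for higher members and -0.57 for lower members, where all probe sets had a median of -0.05.

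**Figure D1:**
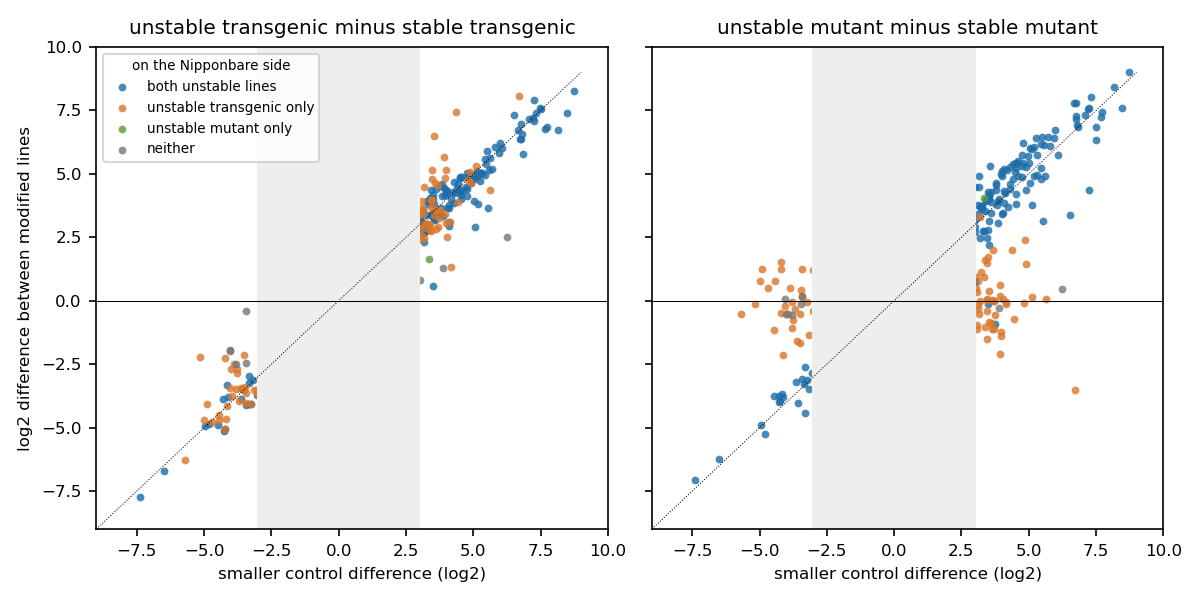
Each point is 1 of the 217 members. The horizontal axis is the smaller of the differences between the Nipponbare control mean and the other control means (log2), the vertical axis is the log2 difference between modified lines that took no part in the choice, and the dotted line marks equal values. The grey band holds no member because the rule asks for a difference of at least 3. For the transgenic pair the points follow the dotted line, and for the mutant pair 35 higher and 22 lower members were not called and many of them lie near 0.

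Taking both unstable lines against both stable lines, 160 of 164 higher members were called higher and 50 of 53 lower members were called lower. Over all probe sets these shares were 8.85% and 11.6%. No member was called in the opposite direction. The difference ranged from 0.49 to 8.64 in higher members and from -7.41 to -0.27 in lower members, with medians of 3.88 and -2.13. The 4 unstable arrays lay without overlap above the 4 stable arrays in 124 higher members, against 3.4% of all probe sets, and without overlap below them in 30 lower members, against 5.61%. The unstable lines are all Nipponbare and young generations, and the stable lines are other cultivars and older generations, so cultivar and generation cannot be told apart in this comparison. The unstable mutant line alone against both stable lines gave 124 called higher and 30 called lower, where 5.68% and 5.73% of all probe sets were called. The unstable transgenic line alone gave all 164 and all 53, where 13.6% and 17.9% were called. Both of these fits were chosen after the data had been seen.

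The 4 higher members not called in the pooled comparison were PRX112, CYP71Z7, LOC4329797 and an unannotated probe set. The 3 lower members not called were LOC4334012 and 2 unannotated probe sets, one of them the exception of the transgenic pair. In each of these 7 members the unstable mutant mean was nearer to another control than to the Nipponbare control.

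Levels in the unstable lines were placed on a scale where 1 is the Nipponbare control mean and 0 is the nearer of the Bengal and Estrela A control means, and a line was said to be on the Nipponbare side when it was closer to 1. The unstable transgenic line was on the Nipponbare side in 160 of 164 higher members and 48 of 53 lower members, with median positions of 0.97 and 0.963. The unstable mutant was on the Nipponbare side in 114 of 164 higher members and 19 of 53 lower members, with median positions of 0.979 and 0.162. Its positions fell into separate groups: among higher members 108 were at 0.75 or above, 42 at 0.25 or below and 14 between, and among lower members 19 were at 0.75 or above, 28 at 0.25 or below and 6 between.

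Members therefore fell into 4 classes, which describe the levels and were not tested. Both unstable lines were on the Nipponbare side in 113 higher members (68.9%) and 19 lower members (35.8%). The transgenic line alone was on that side in 47 higher members (28.7%) and 29 lower members (54.7%). Neither line was in 3 higher and 5 lower members, and the mutant alone was in 1 higher member, LOC4345432.

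The classes differed in the level of their dim side. Where both unstable lines were on the Nipponbare side, the brighter other control mean was below 5 in 86 of 113 higher members (76.1%), and the smaller control difference had a median of 4.49. Where only the transgenic line was, it was below 5 in 13 of 47 (27.7%), and the median difference was 3.58. Among lower members, the Nipponbare control was below 5 in 12 of 19 (63.2%) of the first class and 12 of 29 (41.4%) of the second, with median differences of -4.12 and -3.88. The difference between these shares was not tested.

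**Figure D2:**
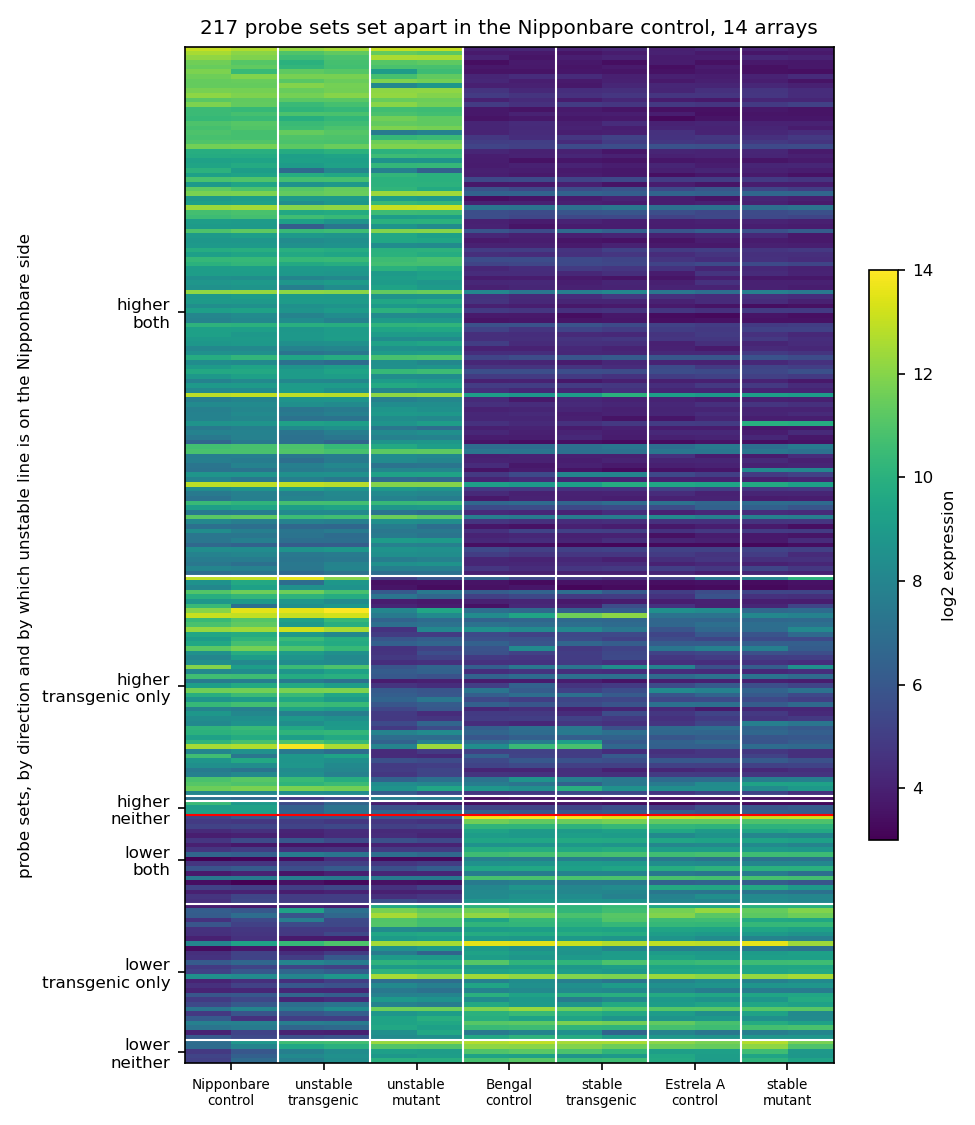
Log2 expression of the 217 members (lines of the heatmap) on the 14 arrays (columns, 2 per group), with the 164 higher members above the red line and the 53 lower members below it. Within each direction members are ordered by which unstable line is on the Nipponbare side and then by size of difference. The unstable mutant mean is closer to the Nipponbare control than to the nearer other control in 114 higher and 19 lower members, and closer to another control in the rest.

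**Figure D3:**
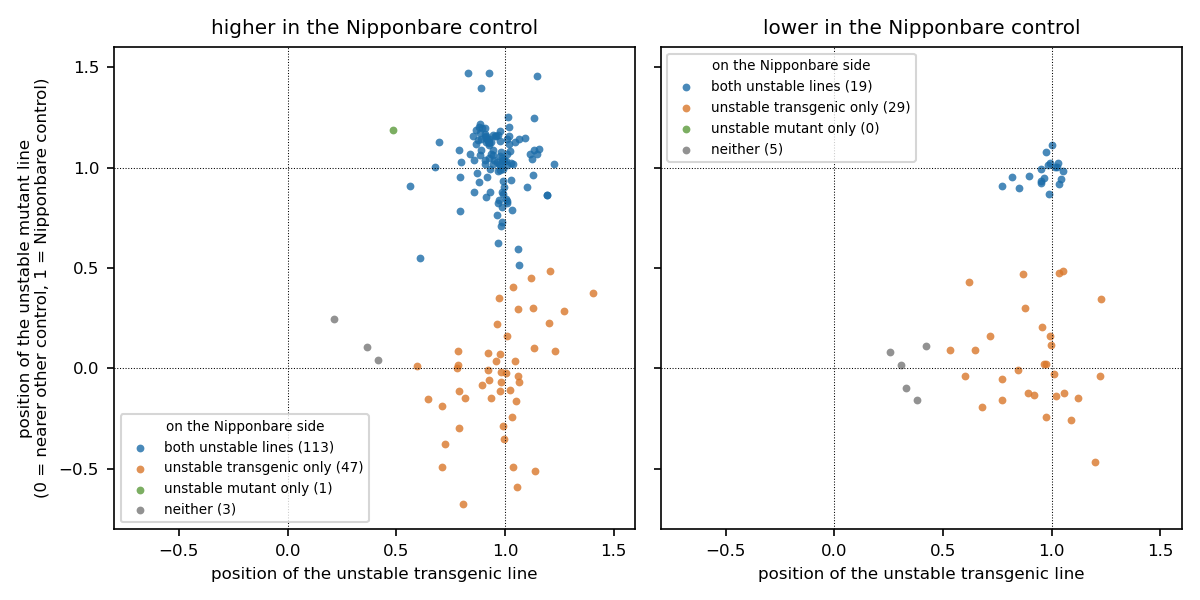
Position of the unstable transgenic line (horizontal axis) and of the unstable mutant line (vertical axis) for each member, where 1 is the Nipponbare control mean and 0 the nearer other control mean. Points are coloured by class, with the number of members in the legend. The transgenic line has median positions of 0.97 and 0.963, while the mutant forms one cloud near 1 and another near 0.

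The unstable lines were also compared with each other, both being labelled Nipponbare. Of the 164 higher members, 68 were called lower in the mutant, 57 were called higher and 39 were not called, where 13.2% of all probe sets were called lower and 15% higher. Of the 53 lower members, 32 were called higher in the mutant, 1 was called lower and 20 were not called. The 1 called lower was LOC4334423, by 0.56 on the log2 scale. Differences ran from -7.29 to 2.34 in higher members, with a median of -0.02, and from -0.56 to 5.88 in lower members, with a median of 1.85. With a further threshold of at least 2-fold, 57 higher members were called lower in the mutant and 27 higher. The line, the agent and hygromycin cannot be told apart here. Between the stable lines, 11 higher members were called higher in the mutant and 7 lower, where 5.33% and 5.36% of all probe sets were, and of the lower members 4 were called higher and 13 lower.

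Members with a gene symbol were described by role, first those higher in the Nipponbare control. CPS2 encodes an ent-copalyl diphosphate synthase that makes the first committed diterpene precursor of phytoalexins, the antimicrobial compounds of rice. Its levels were 10.43 and 7.08 in the Nipponbare control, followed by 8.49 and 8.87 in the unstable transgenic line, but 4.13 and 3.88 in the unstable mutant. The Bengal control read 3.53 and 4.25, the Estrela A control 4.59 and 4.02, the stable transgenic line 4.0 and 5.57 and the stable mutant 4.18 and 5.29. The unstable mutant thus lay within the range of the other cultivars, and the Nipponbare control and the unstable transgenic line lay above all other arrays. In limma the transgenic pair differed by 3.89 ± 0.485 (SE, adjusted p = 0.000603) and the mutant pair by -0.73 ± 0.485 (adjusted p = 0.467).

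CYP71Z7, a cytochrome P450 of the same diterpenoid pathway, is the direct neighbour of CPS2 in the gene order of the reference annotation. It read 11.94 and 9.11 in the Nipponbare control, 10.50 and 10.92 in the unstable transgenic line, with 5.89 and 6.56 in the unstable mutant. The other 8 arrays ran from 5.67 to 8.46, so the mutant again lay within their range. The unstable mutant was lower than the unstable transgenic line by 4.49 ± 0.645 for CYP71Z7 (adjusted p = 0.000991 in limma) and by 4.67 ± 0.485 for CPS2 (adjusted p = 0.000196). The Nipponbare control pools were uneven for both genes, so their smaller control differences, 3.69 and 4.45, rest on pools that disagreed.

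Of 15 genes on a phytoalexin list, which holds these 2 members, 5 were called higher and 0 lower in the unstable against the stable lines, and 12 were called lower and 0 higher in the unstable mutant against the unstable transgenic line. Over all probe sets 8.85% were called higher and 11.6% lower in the first comparison, and 13.2% lower and 15% higher in the second. The list medians were 0.37 and -1.67, where all probe sets had medians of -0.04 and 0.03. CPS4, which makes the syn isomer of the precursor and is no member, was lower in the mutant by 2.50 (limma adjusted p = 0.000543).

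NAS2 encodes a nicotianamine synthase, which makes the precursor of the phytosiderophores that rice secretes to take up iron. It was high in the Nipponbare control (12.52 and 12.67) and in the unstable transgenic line (13.85 and 12.62). Pools disagreed widely in the unstable mutant (7.94 and 12.34), the Bengal control (8.39 and 10.44) and the stable transgenic line (10.81 and 6.67). Estrela A was uniformly low, at 6.36 and 6.31 in the control and 6.87 and 6.78 in the stable mutant. The unstable lines exceeded the stable ones by 3.90 ± 1.053 (limma adjusted p = 0.0304), a call that was lost when any 1 of 5 arrays was left out, with no moderation (adjusted p = 0.206) and with a trended robust prior (adjusted p = 0.172). Without replicate 2 of the stable transgenic line it was 2.87 (adjusted p = 0.0833), and without replicate 2 of the unstable mutant it was 2.81 (adjusted p = 0.0833).

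Of 11 genes on an iron-uptake list, matched by symbol, 7 were called higher and 1 lower in the unstable lines. Their median was 0.76, and 8.85% and 11.6% of all probe sets were called. In the unstable mutant against the unstable transgenic line 3 of the 11 were called lower and 1 higher, where 13.2% and 15% of all probe sets were. The 7 include NAS2 and IRT1, which met the thresholds of the rule as higher in the Nipponbare control. IRT1 is also among the 3. A gene with the symbol tom1 is counted in the 7 and in the 3, by 0.29 and -0.425 (limma adjusted p of 0.0394 and 0.025). Its means ran from 11.7 to 12.23 over all groups, and whether it is an iron-uptake gene was not checked. NAS1, a close homologue that is no member, was higher in the unstable lines by 4.59 (limma adjusted p = 0.0311). Its means were 12.76 in the unstable transgenic line but 9.205 in the unstable mutant, against 9.385 in the Bengal control and 4.04 in the Estrela A control. How far the NAS1 call depends on single arrays was not tested. IRT1, an iron transporter gene that met the thresholds and was left out by the rule, had means of 11.06 in the Nipponbare control but 5.84 in the unstable mutant.

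PRX112 encodes a class III peroxidase, of the secreted family that acts on cell-wall phenolics. It read 10.14 and 10.41 in the Nipponbare control, 9.61 and 8.99 in the unstable transgenic line, with 4.88 and 5.56 in the unstable mutant. The remaining 8 arrays ran from 5.67 to 7.38, so the mutant lay below all of them. The mutant was lower than the unstable transgenic line by 4.08 ± 0.486 (limma adjusted p = 0.000388).

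GLU15 encodes an endo-1,4-beta-glucanase, an enzyme that cuts wall glucans. Its levels were 8.43 and 8.16 in the Nipponbare control, followed by 8.34 and 8.28 in the unstable transgenic line. All other arrays, the unstable mutant at 4.46 and 4.54 included, lay between 4.42 and 4.87. The transgenic pair differed by 3.58 ± 0.125 (limma adjusted p = 2.49e-07) and the mutant pair by -0.03 ± 0.125 (adjusted p = 0.945). The probe set carries the suffix that marks possible matches to other transcripts.

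PP2C12 and PRDA1 were the only symbol-bearing members in which both unstable lines were on the Nipponbare side. PP2C12, a protein phosphatase 2C, ran from 10.52 to 11.53 on the 6 Nipponbare arrays and from 7.49 to 8.19 on the 8 others. PRDA1 is named after an Arabidopsis gene that is required for chloroplast development. It ran from 8.34 to 9.25 on the Nipponbare arrays and from 4.63 to 5.13 on the others. The groups did not overlap for either gene, but for the control arrays among them the rule had largely fixed this. In the modified lines, which took no part in the choice, the unstable lines exceeded the stable ones by 3.31 ± 0.093 for PP2C12 (limma adjusted p = 4.57e-08). For PRDA1 the difference was 3.88 ± 0.084 (adjusted p = 8.29e-09). Unstable arrays lay without overlap above the stable arrays in 124 of 164 higher members, against 3.4% of all probe sets. A second probe set of PRDA1 had means of 10.91 in the Nipponbare control, 10.66 in the Estrela A control and 8.70 in the Bengal control, and so was not apart from both.

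Symbol-bearing members lower in the Nipponbare control were led by dehydrins and a late embryogenesis abundant protein, which accumulate in seeds and under water deficit through abscisic acid. RAB21, a dehydrin, read 7.96 and 9.40 in the Nipponbare control, followed by 10.37 and 10.93 in the unstable transgenic line. It read 12.46 and 12.56 in the unstable mutant, and the other 8 arrays ran from 12.38 to 13.61. The unstable transgenic line thus lay between its control and the other cultivars, and the mutant lay at the lower edge of the other cultivars. A second RAB21 probe set showed the same order, with 6.89 and 7.97 in the Nipponbare control, 9.55 and 9.97 in the unstable transgenic line, then 11.03 and 10.98 in the unstable mutant and 10.91 to 12.12 elsewhere.

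RAB16B, a dehydrin of the same family that lies next to RAB21 in gene order, read 4.83 and 5.97 in the Nipponbare control. It read 7.76 and 8.33 in the unstable transgenic line, then 9.20 and 9.09 in the unstable mutant and 8.85 to 11.19 on the other arrays. LEA19 read 6.95 and 8.77 in the Nipponbare control, 10.52 and 10.62 in the unstable transgenic line, 12.31 on both unstable mutant arrays and 11.73 to 12.93 elsewhere. In all 4 probe sets, with RAB21 counted by both of its own, both arrays of the unstable transgenic line lay above both Nipponbare control arrays. The same held in 22 of all 53 lower members, which were chosen for a low Nipponbare control mean. The share over all probe sets was not computed. The unstable transgenic line carries its transgene behind AtRD29A, a promoter known from Arabidopsis to respond to drought and cold, and it was grown on hygromycin. The part of either in these levels was not tested.

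The transgenic pair differed in limma by -2.26 ± 0.348 for RAB21 (adjusted p = 0.00179), -1.96 ± 0.258 for LEA19 (adjusted p = 0.000799) and -2.50 ± 0.479 for RAB16B (adjusted p = 0.00549). The mutant pair differed by -0.48 ± 0.348, 0.07 ± 0.258 and -0.57 ± 0.479, with adjusted p-values of 0.507, 0.923 and 0.583. The mutant exceeded the unstable transgenic line by 1.86 ± 0.348 for RAB21 (adjusted p = 0.00393) and 1.74 ± 0.258 for LEA19 (adjusted p = 0.00117). For RAB16B that difference was 1.10 ± 0.479 (adjusted p = 0.13). RAB16 genes are near-identical copies that can share probes, so levels of single copies are uncertain.

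Of 8 water-deficit genes on the array, 2 were called higher and 3 lower in the unstable against the stable lines, with a median of -0.39, where 8.85% and 11.6% of all probe sets were called. In the mutant against the unstable transgenic line 3 were called higher and 1 lower, where 15% and 13.2% of all probe sets were. These counts include 3 members, which the rule chose as lower in the Nipponbare control. RAB16C, which is no member, had a mean of 7.35 in the Nipponbare control, against 9.78 and 8.77 in the Bengal and Estrela A controls. RAB16D, also no member, was higher in the mutant by 2.52 (limma adjusted p = 0.00195), and Dhn1 was lower by 1.36 (adjusted p = 7.47e-05), so the called genes did not all run in 1 direction.

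PP2C45, another protein phosphatase 2C, read 7.27 and 8.02 in the Nipponbare control, followed by 7.52 and 8.34 in the unstable transgenic line. All other arrays lay between 11.08 and 12.31, including the unstable mutant at 11.56 and 11.58. ATG8D belongs to the ubiquitin-like family that builds autophagosomes. It read 4.61 and 5.22 in the Nipponbare control, followed by 4.98 and 6.11 in the unstable transgenic line, and 8.80 to 9.32 on every other array. Both genes thus had the 4 arrays of the Nipponbare control and the unstable transgenic line on one side and the 10 other arrays on the other. The mutant exceeded the transgenic line by 3.64 ± 0.241 for PP2C45 (limma adjusted p = 2.73e-05) and 3.44 ± 0.29 for ATG8D (adjusted p = 7.93e-05).

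ENODL18 is of the early nodulin-like family of copper-binding-type cell-surface proteins. It read 5.10 and 6.80 in the Nipponbare control, 7.77 and 8.39 in the unstable transgenic line, then 9.96 and 9.91 in the unstable mutant and 9.08 to 11.13 elsewhere. As with the dehydrins, the unstable transgenic line lay between, and the mutant exceeded it by 1.85 ± 0.244 (limma adjusted p = 0.000631).

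**Figure D4:**
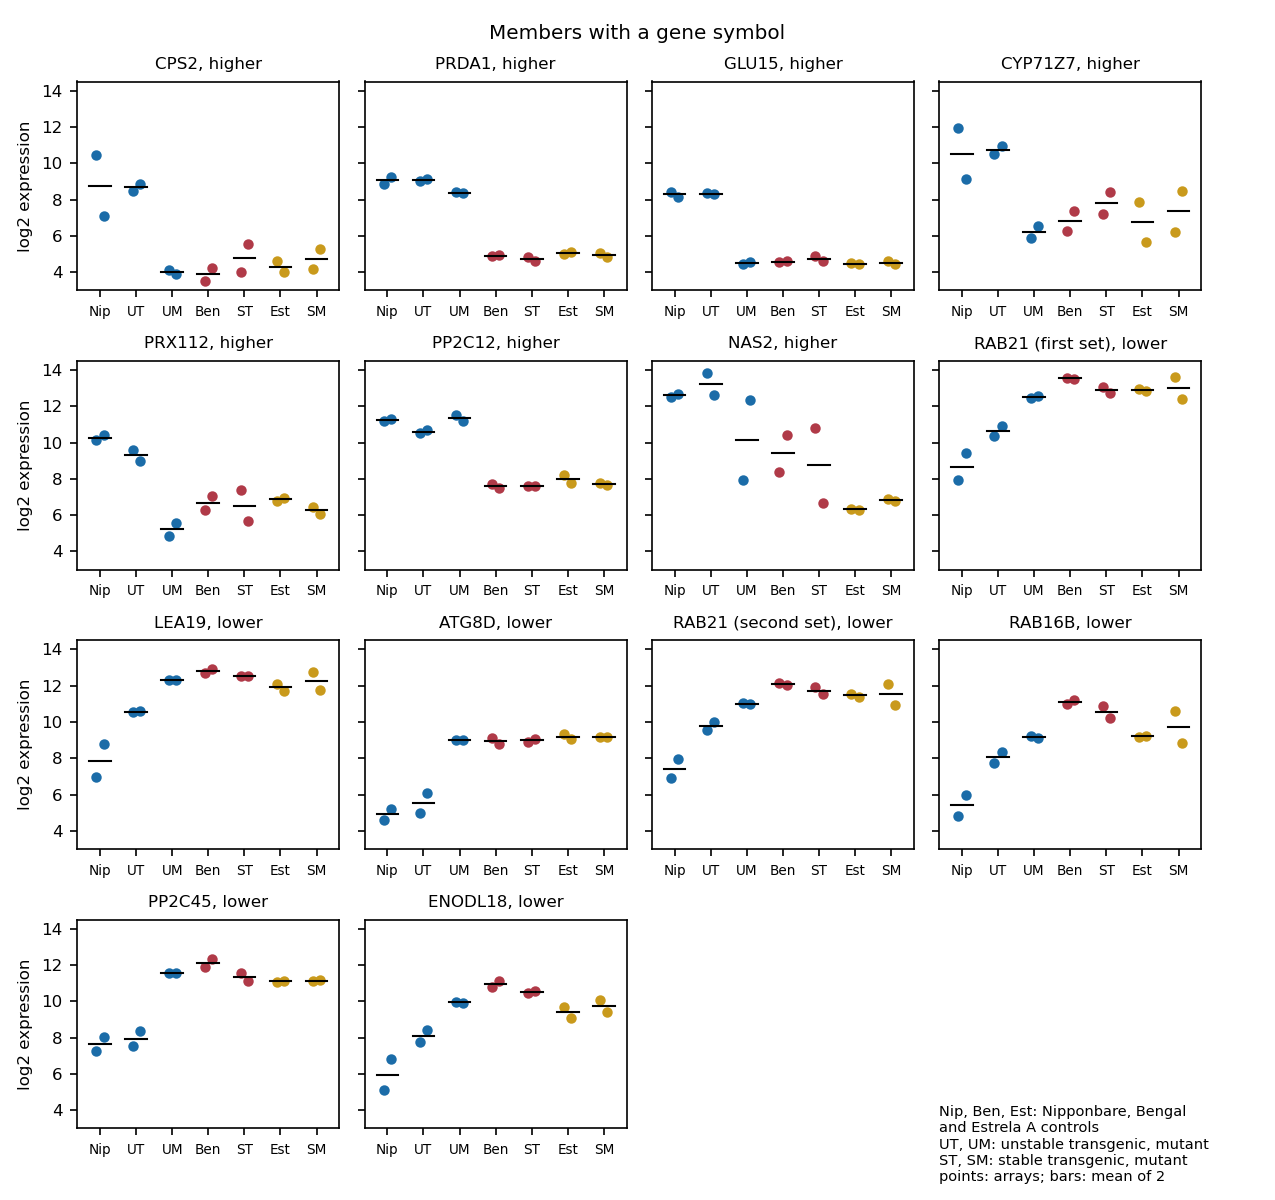
Log2 expression of the 14 probe sets of members with a gene symbol on all arrays, with 2 points per group and a bar at their mean. PP2C12 and PRDA1 have all 6 Nipponbare arrays on one side, while in GLU15, PP2C45 and ATG8D the unstable mutant sits with Bengal and Estrela A. NAS2 has pools that disagree within 3 groups, among them 7.94 and 12.34 in the unstable mutant.

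Of the 14 probe sets of members with a symbol, only PP2C12 and PRDA1 were on the Nipponbare side in the unstable mutant. The most extreme members had no symbol. Among higher members the largest smaller control difference, 8.73, belonged to an unannotated probe set. It ran from 12.27 to 13.03 on the 6 Nipponbare arrays and from 3.94 to 4.22 on the 8 others. LOC4329983 ran from 10.96 to 12.57 against 3.61 to 3.99, and LOC4346790 from 10.59 to 12.61 against 3.64 to 4.22. In these 3 members the 6 arrays labelled Nipponbare lay far above the 8 others, which the rule had fixed for the control arrays. The unstable lines, which took no part in the choice, were above the stable ones by 8.64 ± 0.083, 7.51 ± 0.103 and 7.57 ± 0.084 in these members. Their low side was near the bottom of the scale, where detection was not analysed and values have no known order, so these sizes, and the order of members by size, hold only for the values as deposited.

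The next 7 in size were LOC4348206, LOC4328531, LOC107277838 and 4 unannotated probe sets. Their smaller control differences lay between 7.25 and 7.72, and the unstable lines exceeded the stable ones by 6.13 to 7.71. LOC107277838 differed from the rest: it read 11.40 and 11.41 in the Nipponbare control, followed by 11.97 and 11.72 in the unstable transgenic line, but 8.13 and 8.81 in the unstable mutant, against 3.71 to 4.22 elsewhere. The mutant was thus lower than the unstable transgenic line by 3.38 ± 0.231 (limma adjusted p = 3.24e-05) and still above every Bengal and Estrela A array. A second probe set of this gene gave means of 10.83, 11.26 and 7.67 in those 3 groups.

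Among lower members the largest difference also belonged to an unannotated probe set. It ran from 5.30 to 6.04 on the 6 Nipponbare arrays and from 12.95 to 13.84 on the 8 others. LOC4340994 ran from 4.61 to 4.98 against 10.92 to 11.70, another unannotated probe set from 5.10 to 5.39 against 10.09 to 10.36, and LOC4348984 from 4.15 to 4.51 against 8.98 to 9.64. In these 4 members the unstable mutant stayed with the other Nipponbare arrays. The unstable lines were lower than the stable ones by 7.41 ± 0.089, 6.48 ± 0.085, 4.92 ± 0.086 and 5.05 ± 0.095.

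The unstable mutant stood with the other cultivars in LOC4350420, LOC4334644, LOC4350879 and LOC4334012. LOC4350420 read 3.91 and 3.79 in the Nipponbare control, followed by 4.11 and 3.91 in the unstable transgenic line, but 9.61 and 9.23 in the unstable mutant and 9.53 to 10.43 on the other arrays. LOC4350879 ran from 5.12 to 5.92 on the 4 arrays of the Nipponbare control and the unstable transgenic line, and from 10.06 to 11.05 on the other 10. LOC4334644 ran from 5.87 to 6.92 on those 4 arrays and from 10.83 to 12.52 on the other 10. For these members the mutant exceeded the transgenic line by 5.41 ± 0.153, 5.44 ± 0.145 and 5.88 ± 0.294 (limma adjusted p of 4.53e-07, 3.45e-07 and 7.37e-06). LOC4334012 and an unannotated probe set were uneven in the unstable transgenic line, at 9.35 and 7.08 and at 7.69 and 5.43, and their mutant levels lay at 10.64 to 11.73. In LOC4344505 and a further unannotated probe set the mutant was above the stable mutant by 1.26 ± 0.111 (limma adjusted p = 0.000109) and 1.52 ± 0.236 (adjusted p = 0.004). The stable mutant was the lowest of the Bengal and Estrela A groups in both, and the Bengal control mean, the highest of them, was 8.92 against 9.12 in the unstable mutant for LOC4344505 and 8.77 against 8.76 for the other.

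Among higher members the mutant was farthest below the transgenic line in LOC4329797, LOC9268308, LOC4336614 and 2 unannotated probe sets. The one with the widest fall read 12.89 and 12.98 in the Nipponbare control, 13.60 and 11.95 in the unstable transgenic line, with 5.01 and 5.95 in the unstable mutant. It was also uneven in Estrela A, at 5.16 and 7.29 in the control and 7.90 and 10.07 in the stable mutant, and the unstable mutant was lower than the stable mutant by 3.50 ± 0.704 (limma adjusted p = 0.0157). LOC9268308 read 11.62 and 11.64 in the Nipponbare control, 11.77 and 11.88 in the unstable transgenic line, then 6.11 and 5.88 in the unstable mutant and 5.12 to 8.32 elsewhere. LOC4336614 read 4.59 and 5.18 in the unstable mutant against 10.37 to 11.71 in the Nipponbare control and the unstable transgenic line, and LOC4329797 read 4.59 and 8.08 in the mutant against 12.25 to 13.18. Differences between the unstable lines in these 5 members ran from -7.29 to -5.29, with limma adjusted p-values from 1.72e-06 to 0.000906.

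The stable lines were on the Nipponbare side in only a few members. Means at least 2-fold from the own control were higher in 2 and lower in 4 higher members in the stable transgenic line. In the stable mutant they were higher in 6 and lower in 2 higher members, and lower in 1 lower member. In the stable transgenic line LOC9267044 read 7.95 on both arrays, where the Bengal control read 4.81 and 5.45 and the 6 Nipponbare arrays 8.5 to 9.32. Of the 2 unannotated probe sets just described, the one with the smaller fall read 11.59 and 12.10 in the stable transgenic line, where the Bengal control read 8.31 and 9.44. Both were therefore on the Nipponbare side in this Bengal line, as 2 of 164 higher members and 0 of 53 lower ones were. In the stable mutant LOC4346944 read 8.27 and 8.09 and LOC4343322 read 9.88 and 9.79, where the Estrela A control read 3.53 and 3.67 and 4.95 and 4.90. LOC4347898 read 7.74 and 7.32 in the stable mutant and 4.72 and 5.28 in its control. These 3 were the only higher members on the Nipponbare side in the stable mutant, and no lower member was. LOC4346944 and LOC4343322 thus had a high level in all 6 Nipponbare arrays and in the stable mutant of Estrela A, and a low one in the other 6 arrays.

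LOC4345432 was the only member with the mutant alone on the Nipponbare side. It read 7.19 and 6.76 in the Nipponbare control, 4.98 and 5.53 in the unstable transgenic line, with 7.70 and 7.49 in the unstable mutant, and 3.50 to 3.72 elsewhere. The unstable transgenic line thus lay between, and above all 8 arrays of the other cultivars. In the 3 higher members with neither unstable line on that side, LOC4341380 read 10.45 and 8.91 in the Nipponbare control, 5.49 and 6.58 in the unstable transgenic line, then 3.90 and 3.51 in the mutant and 3.21 to 3.63 elsewhere. The other two, both unannotated, read 9.15 to 9.28 in the Nipponbare control and 5.73 to 7.29 in both unstable lines.

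Annotation paired 110 of the 217 members with 1 gene (50.7%), against 39.2% of all probe sets, and 106 members with none. Probe sets designed from gene predictions, whose names begin with OsAffx, made up 13.4% of members and 44.6% of all probe sets. The suffix _x_at, which marks probes that may match other transcripts, was carried by 11.5% of members and 12.5% of all. The suffix _s_at, of probe sets shared between transcripts, was carried by 8.29% of members (13.2% of lower ones) and 4.92% of all. For _a_at the shares were 6.91% and 2.46%. Differences between these shares were not tested. PP2C12, LEA19 and the second RAB21 probe set carry _s_at, and the member probe set of PP2C45 carries _a_at. The 110 members paired with 1 gene came from 99 genes, of which 11 had at least 2 member probe sets.

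Different probe sets of one gene did not always give the same picture. LOC4329444 was the only gene whose member probe sets ran in opposite directions. Its first probe set was low in the Nipponbare control (3.92 and 4.0), the unstable transgenic line (4.04 and 4.34) and the unstable mutant (4.39 and 4.13), and ran from 7.98 to 9.15 on the other arrays. Its second ran from 9.06 to 10.71 on the 6 Nipponbare arrays and from 5.18 to 5.65 on the others. A single gene thus read as lower or as higher in the Nipponbare control, depending on the probe set.

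A further 32 probe sets belonged to 25 member genes without being members. Of these, 8 were at least 1 log2 apart from both other controls in the direction of the member, 0 were so in the opposite direction, and 24 were less than 1 apart or apart from one control only. For LOC4348229 the second probe set had a mean of 10.03 in the Nipponbare control and 10.18 in the Bengal control. For PP2C45 a second probe set read 11.12, 11.35 and 11.31 in the Nipponbare, Bengal and Estrela A controls, and for PRX112 7.37, 7.49 and 7.59. PP2C45 and PRX112 were thus apart by one probe set and level by another. How well the probes match the transcripts of each cultivar was not tested.

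**Figure D5:**
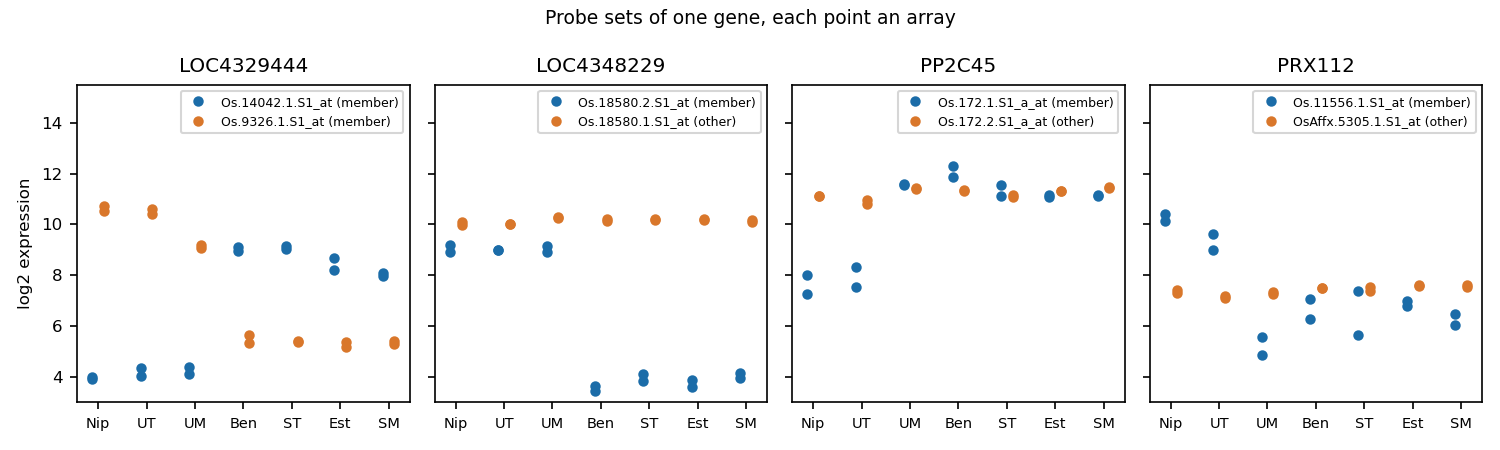
Log2 expression of pairs of probe sets for 4 member genes on all arrays, each point an array. In LOC4329444 the probe sets run in opposite directions, and in LOC4348229, PP2C45 and PRX112 one probe set is apart in the Nipponbare control while the other is level, with means of 10.03 and 10.18 in the Nipponbare and Bengal controls for LOC4348229.

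Some member genes were close neighbours. In the gene order of the reference annotation, 12 pairs of the 99 genes lay within 10 places of each other, 3 of them side by side. The adjacent pairs were CPS2 with CYP71Z7, RAB21 with RAB16B, and ATG8D with LOC9268937. In 11 of 12 pairs both genes ran in the same direction, with LOC4329444 taken by its higher probe set alone. In 8 of 12 they shared a class, with RAB21 taken by its first probe set alone. By its second probe set RAB21 was in the class of RAB16B, with neither unstable line on the Nipponbare side. LOC4341379, LOC4341380 and LOC4341383 formed a run of 3 higher members, with Nipponbare control levels of 9.27 and 9.38, 10.45 and 8.91, and 10.07 and 9.13. They parted in the unstable mutant, at 10.24 and 9.97, 3.90 and 3.51, and 7.80 and 6.39. Another run joined LOC4329444, LOC9270682 and LOC4329446, all with both unstable lines on the Nipponbare side. How often genes chosen at random lie this close was not tested.

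Marker genes were read beside these results. Their levels were summed on the unlogged scale, and the log2 of each sum is given. For the 5 root markers it was 14.40 to 14.46 in the Nipponbare control and 13.98 to 14 in the unstable transgenic line. It was 13.24 to 13.35 in the unstable mutant and 13.18 to 13.79 in the other groups. The root sum rests mainly on the silicon transporter gene Lsi1, with group means of 13.0 to 13.855. IRT1 and NRT2.3, which are 2 of the 5 and met the thresholds of the rule, had the lowest means, from 5.12 to 5.84 in the Bengal and Estrela A groups and the unstable mutant. Between the unstable lines 3 of the 5, IRT1 and NRT2.3 among them, were called lower in the mutant, where 13.2% of all probe sets were. Lsi1 differed by -0.42 (limma adjusted p = 0.109). The 6 shoot markers summed to 15.42 to 15.74 over all arrays and the 5 grain remnant markers to 10.82 to 11.61. The grain remnant sum rests mainly on GLB, with group means of 9.68 to 11.015, and GLUA-2, with 9.08 to 10.075. GLB was matched by symbol, and whether it is a seed storage gene was not checked. The Nipponbare control and the unstable transgenic line thus had the highest root-marker sums, and the unstable mutant lay within the range of the other groups. The part of the root share of the seedlings in the members' levels was not tested.

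Members just inside the threshold were LOC4335404, LOC4342052 and an unannotated probe set, with smaller control differences of 3.0, 3.0 and 3.01. Just outside it were 2 unannotated probe sets at 2.99 and 2.98 and LOC4325203 at 2.97. Among lower members LOC4336526 was inside at -3.0 and 2 unannotated probe sets at -3.02 and -3.05, and LOC4328841, LOC4332506 and a second probe set of LOC9268937 were outside at -2.93, -2.92 and -2.90.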

How the data were processed

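The deposited values are log2 expression from the Affymetrix GeneChip Rice Genome Array. Per the labels' design text, the authors used Partek Genomics Suite to run Robust Multichip Average, which corrects perfect-match probes for background, brings all arrays to 1 distribution, takes log2 and summarises each probe set by median polish. No program version is stated. A value far from the others on 1 array is shrunk by this summary, and differences between dim probe sets are compressed.

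No normalization was added to the 14 columns, and 187 control probe sets were left out, which left 57194. Where only one title of a group is numbered, that array is replicate 1. Probe sets with no gene in the tables are not named. Gene names came from the array annotation through a reference gene table (assembly ASM3414082v1), used only for names and gene order.

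The members, gene lists and tests were chosen with earlier results of these data known. Named are all members with a gene symbol, 10 per direction by size, 5 per direction by difference between the unstable lines, and 3 on each side of the threshold. LOC4345432 and other single members named beside small counts were chosen after their values were seen. Lists held 1 probe set per gene, the brightest, and covered water deficit, iron uptake, jasmonate, phytoalexins, pathogenesis-related proteins, reserve mobilisation, receptors and resistance, and shoot, root and grain remnant markers. Genes entered a list by symbol or synonym alone, so a list can hold genes of another function.

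The 8 arrays of the modified lines were fitted with limma 3.58.1 in R 4.3.3, with 1 mean per group, 4 residual degrees of freedom and a prior of 4.61. Fits of each line against its own control are not reported, because the controls chose the members. Adjusted p-values are Benjamini-Hochberg values over all probe sets, two-sided. Tested on simulated data for the unstable against the stable lines, with 200 of 57194 probe sets changed, the step recovered 96% of changes of 1.5 and 100% of changes of 3, with 3 false calls. Alternatives were other moderation, 14 arrays, filters, cyclic loess, a 2-fold threshold, leaving out each array, and a replicate block. Precision is limited by the number of arrays, and detection calls were not analysed here.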

Additional observations from a re-analysis of the deposited data

Results flagged for a closer look

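Between the unstable lines, both labelled Nipponbare, 34 named probe sets were called by the test of the difference itself (limma, adjusted p under 0.05), and their values are the unstable mutant minus the unstable transgenic line on the log2 scale. Among symbol-bearing members higher in the Nipponbare control, the mutant was lower in CPS2 (-4.67), CYP71Z7 (-4.49), PRX112 (-4.08), GLU15 (-3.81) and PRDA1 (-0.71) and higher in PP2C12 (0.76). Among lower ones, the mutant was higher in PP2C45 (3.64), ATG8D (3.44), RAB21 (1.86 and, by its second probe set, 1.25), ENODL18 (1.85) and LEA19 (1.74).

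Among the largest higher members, the mutant was higher in LOC4346790 (1.87), LOC4348206 (0.80) and 2 unannotated probe sets (0.65 and 0.60), and lower in LOC107277838 (-3.38), LOC4328531 (-0.70) and an unannotated probe set (-1.41). The widest falls among higher members, which were chosen by that difference, were in LOC4329797 (-6.55), LOC9268308 (-5.83), LOC4336614 (-5.79) and 2 unannotated probe sets (-7.29 and -5.29). Among lower members without a symbol, the mutant was higher in LOC4334644 (5.88), LOC4350879 (5.43), LOC4350420 (5.41), LOC4344505 (5.34), LOC4334012 (3.30), LOC4336526 (2.65) and 3 unannotated probe sets (5.09, 5.04 and 4.27). An unannotated higher member just inside the threshold, differed by 0.93.

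These values compare the unstable lines with each other and do not say which of them left the level of the Nipponbare control. For PP2C12 the means were 11.26 in that control, 11.36 in the mutant and 10.60 in the transgenic line. Some of these probe sets were chosen for their difference between the unstable lines, so the share that fell is no result. Over all 164 higher members 68 were called lower and 57 higher in the mutant, with a median of -0.02. Groups of 2 arrays are too small to look for single outlying arrays.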

How the results depend on the processing

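The rule gave 494 members at a threshold of 2 and 106 at a threshold of 4. It gave 169 when every control array had to be 3 apart, 174 without probe sets shared between transcripts, 215 after cyclic loess (212 of them shared) and 212 to 237 when 1 control array was left out.

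Members called in the unstable against the stable lines changed little when 1 array was left out, and more with no moderation. Without 1 array, 154 to 160 higher members were called higher and 49 to 51 lower members were called lower. With no moderation, 141 higher members were called higher and 44 lower members were called lower. Over all probe sets 5060 were called higher and 6618 lower. These fell to 2745 and 3707 with no moderation and to 1358 and 567 with a 2-fold threshold, and were 7800 and 10252 for the transgenic line alone, 3248 and 3280 for the mutant alone (where 30 lower members were called lower), and 3715 to 5144 and 4436 to 6285 without 1 array. For the transgenic pair the leave-one-out ranges were 160 to 164 and 51 to 52, and for the mutant pair 118 to 120 and 24 to 27. Between the unstable lines 61 to 69 higher members were called lower and 46 to 57 higher, 27 of the latter with a 2-fold threshold, and 30 to 34 lower members were called higher. The 1 lower member called lower became 0 with no moderation, with a 2-fold threshold and without replicate 2 of the unstable mutant, a range of 0 to 1.

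Replicate numbers did not pair the samples: same-numbered arrays had deviations correlated at -0.208 to 0.115. With a replicate block 160 higher members were called higher and 50 lower members lower, all probe sets gave 4797 and 5925, and no call of a named probe set changed.

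Among named probe sets, uncalled differences between the unstable lines turned sign in LOC4348984 (-0.042 after cyclic loess) and, without replicate 1 of the unstable transgenic line, in LOC4348984, LOC4335404, LOC4342052 and LOC4329444, where the ranges without 1 array were -0.10 to 0.14, -0.19 to 0.40, -0.14 to 0.24 and -0.08 to 0.22. LOC4329444 was also at -0.06 without replicate 1 of the unstable mutant. Calls in the unstable against the stable lines were lost in 11 named probe sets with no moderation, 6 with a trended robust prior, 3 over all 14 arrays, 2 with a 2-fold threshold and 1 after cyclic loess. CPS2 lost its call over all 14 arrays, with the trended robust prior and with no moderation (limma adjusted p of 0.0806, 0.0734 and 0.137), RAB16B with the last 2 (0.0873 and 0.142), and RAB21, LEA19 and ENODL18 with no moderation (0.0928, 0.101 and 0.0637). LOC4334012 and LOC4329797 gained calls over all 14 arrays (0.0434 and 0.0311). PRX112 gained one without replicate 1 of the stable transgenic line (1.29, adjusted p = 0.00647), and CYP71Z7 without replicate 2 of the stable mutant (1.45, adjusted p = 0.0182). Between the unstable lines 7 named calls were lost with no moderation, 7 with a 2-fold threshold and 2 with the trended robust prior. The second RAB21 probe set (1.25) lost its call with that prior (limma adjusted p = 0.0994), with no moderation (0.162) and without any 1 of 3 arrays (0.0858 to 0.117). LOC4348206 (0.80) lost its call with no moderation (0.144) and without any 1 of 3 arrays, and was 0.43 without replicate 1 of the unstable transgenic line. LOC4328531 (-0.70) lost its call with no moderation (0.16) and without any 1 of 3 arrays, and was -0.41 without replicate 1 of the unstable mutant. RAB16B differed between the unstable lines at an adjusted p of 0.0164 without either stable mutant array. The cause was not tested. Signal over background was not analysed here, so values below 5 have no known order.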

Other observations

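For the lists below, 8.85% of all probe sets were called higher and 11.6% lower in the unstable against the stable lines, and 15% higher and 13.2% lower in the unstable mutant against the unstable transgenic line. Jasmonate genes held no member after JAZ2 was left out. Of 35 genes on the jasmonate list, JAZ2 counted among them, 25 were called lower and 0 higher in the unstable mutant against the unstable transgenic line, with a median of -1.10. In the unstable against the stable lines 18 were called higher and 2 lower, with a median of 0.59. The list was matched by symbol or synonym and also holds GATA17, GATA18 and GATA20, which are GATA factors by name. GATA17 is 1 of the 25 (-0.46, limma adjusted p = 0.00997) and GATA20 is 1 of the 2 (-0.50, adjusted p = 0.00108). JAZ2, a repressor of jasmonate signalling, had means of 10.61 in the Nipponbare control and 10.69 in the unstable transgenic line, and of 3.31 to 3.50 in the other 5 groups.

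Other lists held no member. Of 12 pathogenesis-related genes, 4 were called higher and 1 lower in the unstable lines, and 4 were called lower and 0 higher in the mutant against the transgenic line. Of 10 genes matched by symbol or synonym to a receptor and resistance list, 2 were called higher and 4 lower in the unstable lines. In the mutant 4 were called higher and 1 lower. The list also holds MADS, MADS4 and D1, which are no receptor or resistance genes by name. MADS is 1 of the 4 called lower in the unstable lines (-1.34, limma adjusted p = 9.41e-06). Of 7 reserve mobilisation genes, 0 were called higher and 1 lower in the unstable lines, and 3 higher and 1 lower in the mutant. Of 6 shoot markers, 1 was called higher and 1 lower in the unstable lines, and 2 higher and 1 lower in the mutant. Of 5 root markers, 2 were called higher and 0 lower in the unstable lines. These 2 were IRT1 and NRT2.3, which met the thresholds of the rule as higher in the Nipponbare control. Of 5 grain remnant markers, 1 was called higher and 2 lower in the unstable lines, and 1 higher and 0 lower in the mutant. The 1 called higher in the unstable lines was GLB (0.775, limma adjusted p = 0.000103), which was matched by symbol alone.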
